A study of Mus musculus with 12 samples.

Results

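The 32 genes described here mark mast cells, basophils and eosinophils. They were chosen by name, for roles known from these cells, with earlier results of these data known. All 32 were found among the 38250 genes of the deposited table. They comprise 10 granule proteases, 4 genes of the IgE receptor and its adaptor, 7 genes for the synthesis and storage of mediators, 3 eosinophil granule proteins, 6 type 2 cytokines and receptors, and 2 regulators.

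Mast cells, basophils and eosinophils arise from myeloid progenitors and store preformed proteases, amines and toxic cationic proteins in granules. Mast cells and basophils release these on cross-linking of the high-affinity IgE receptor, and all 3 cell types make leukotrienes or type 2 cytokines. Their progenitors share GATA transcription factors with the erythroid lineage, and the shared beta chain of the IL-3, IL-5 and GM-CSF receptors carries growth signals to them. IKAROS, encoded by Ikzf1, is a zinc finger DNA-binding protein of blood cells that activates some genes and represses others, including targets of NOTCH signalling.

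RNA was sequenced in 12 libraries from the Ter119+ cells of mouse fetal liver cultures. Liver cells of CD1 embryos at E14.5 were grown on stroma with erythropoietin for 48 h, and, by the study's methods, cells carrying Ter119, a surface antigen of maturing red cells, were then sorted. The Ik-Null/OP9 group (3 libraries) and the Ik-Null/OP9-DL1 group (3 libraries) came from embryos homozygous for an Ikzf1 null allele that, by the study's methods, lacks the last translated exon. The Ik-WT/OP9 group (3 libraries) and the Ik-WT/OP9-DL1 group (3 libraries) came from wild-type embryos of the same heterozygous crosses. OP9 is a mouse bone marrow stromal line, and OP9-DL1 is the same line constitutively expressing the NOTCH ligand DELTA-like 1, so the stromas differ in exposure to that ligand. Replicates were described as biological, numbered 1, 2 and 3 for Ik-Null and 1, 3 and 4 for Ik-WT, and each number was plated on both stromas. The deletion is constitutive, so every cell type in an Ik-Null culture carries it, and gene-level counts of Ikzf1 cannot check an allele that lacks 1 exon.

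Values are normalized counts, that is, reads per gene divided by a size factor for the library. In the 10 libraries whose recovered whole reads were used, these came to 19889576 to 31624477 reads, with a median of 24184617. The sorted cells were erythroid by their markers: 9 erythroid genes summed to 2671051 to 7057111 normalized counts per library, and 0 of the 9 were called between genotypes on either stroma by limma. At unadjusted p under 0.05, 1 erythroid gene was lower in Ik-Null on OP9 and 2 were on OP9-DL1, edgeR called 0, and DESeq2 called 1 higher on OP9-DL1. A gene was called when its adjusted p was under 0.05 over the 13769 genes averaging 5 or more normalized counts and its log2 fold change was at least 0.8 in size. Of all genes tested, 921 were called higher and 389 lower in Ik-Null/OP9 than in Ik-WT/OP9, and 1295 higher and 640 lower in Ik-Null/OP9-DL1 than in Ik-WT/OP9-DL1. Rescaling the libraries to a common total moved the all-gene median log2 fold change to -0.21 on OP9 and -0.26 on OP9-DL1, against 0.00 and 0.03, and the calls over all genes became 579 higher with 858 lower on OP9, and 719 higher with 1590 lower on OP9-DL1.

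Ik-Null cells had more RNA of the eosinophil granule proteins, the chymases Mcpt1 and Mcpt2, serglycin, leukotriene C4 synthase and the shared receptor beta chain than Ik-WT cells on both stromas, and less of Il4. Of the 32 members, 5 (Tpsb2, Fcer1a, Il5ra, Il13 and Rgs13) averaged under 5 normalized counts and were not tested. Of the 27 members over the minimum, 11 were called higher and 2 lower in Ik-Null/OP9 than in Ik-WT/OP9. The background was 6.69% of all genes tested called higher and 2.83% called lower. On OP9-DL1, 10 of 27 were called higher and 1 lower in Ik-Null than in Ik-WT cells, against a background of 9.41% higher and 4.65% lower. The median log2 fold change of the 27 was 1.83 on OP9 and 1.71 on OP9-DL1, and 24 of 27 lay above 0 on each stroma. With that common total, 9 members were called higher with 2 lower on OP9, and 8 higher with 1 lower on OP9-DL1. In bulk RNA, fewer cells of a type and less RNA per cell cannot be told apart, and that holds for every difference below.

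The groups did not overlap for many members. Each Ik-Null/OP9 library was above each Ik-WT/OP9 library for 15 of 27 members, against 17.1% of all genes tested, and below each for 2, against 16.7%. On OP9-DL1 the Ik-Null libraries were all above the Ik-WT libraries for 13 of 27 members, against 17.1% of all genes, and all below for 1, against 16.9%. The members called on both stromas were Csf2rb, Epx, Ltc4s, Mcpt1, Mcpt2, Prg2, Prg3 and Srgn, all higher in Ik-Null, and Il4, lower in Ik-Null. Mcpt4, Slc18a2 and Tph1 were called higher and Gzmb lower in Ik-Null on OP9 without being called on OP9-DL1, and Alox5 and Hdc were called higher on OP9-DL1 without being called on OP9. With recovered reads of the 10 libraries, edgeR's quasi-likelihood test called 7 members higher with 1 lower on OP9, and 6 higher with 1 lower on OP9-DL1. Csf2rb, Epx, Prg2, Prg3, Srgn and Il4 were called on both stromas by limma, edgeR and DESeq2, and edgeR added Mcpt1 and Mcpt2 on OP9 and Ltc4s on OP9-DL1. No member differed between stromas in its response to the genotype when that difference was itself tested with limma (0 of 27, background 0% of all genes, adjusted p under 0.05). At an unadjusted p under 0.05, 1 of 27 members, Mcpt1, differed, with a lower log2 fold change on OP9-DL1. Of the 13769 genes, 12 had a lower and 47 a higher log2 fold change on OP9-DL1 at that p. EdgeR and DESeq2 on recovered reads each called 0 members.

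**Figure D1:**
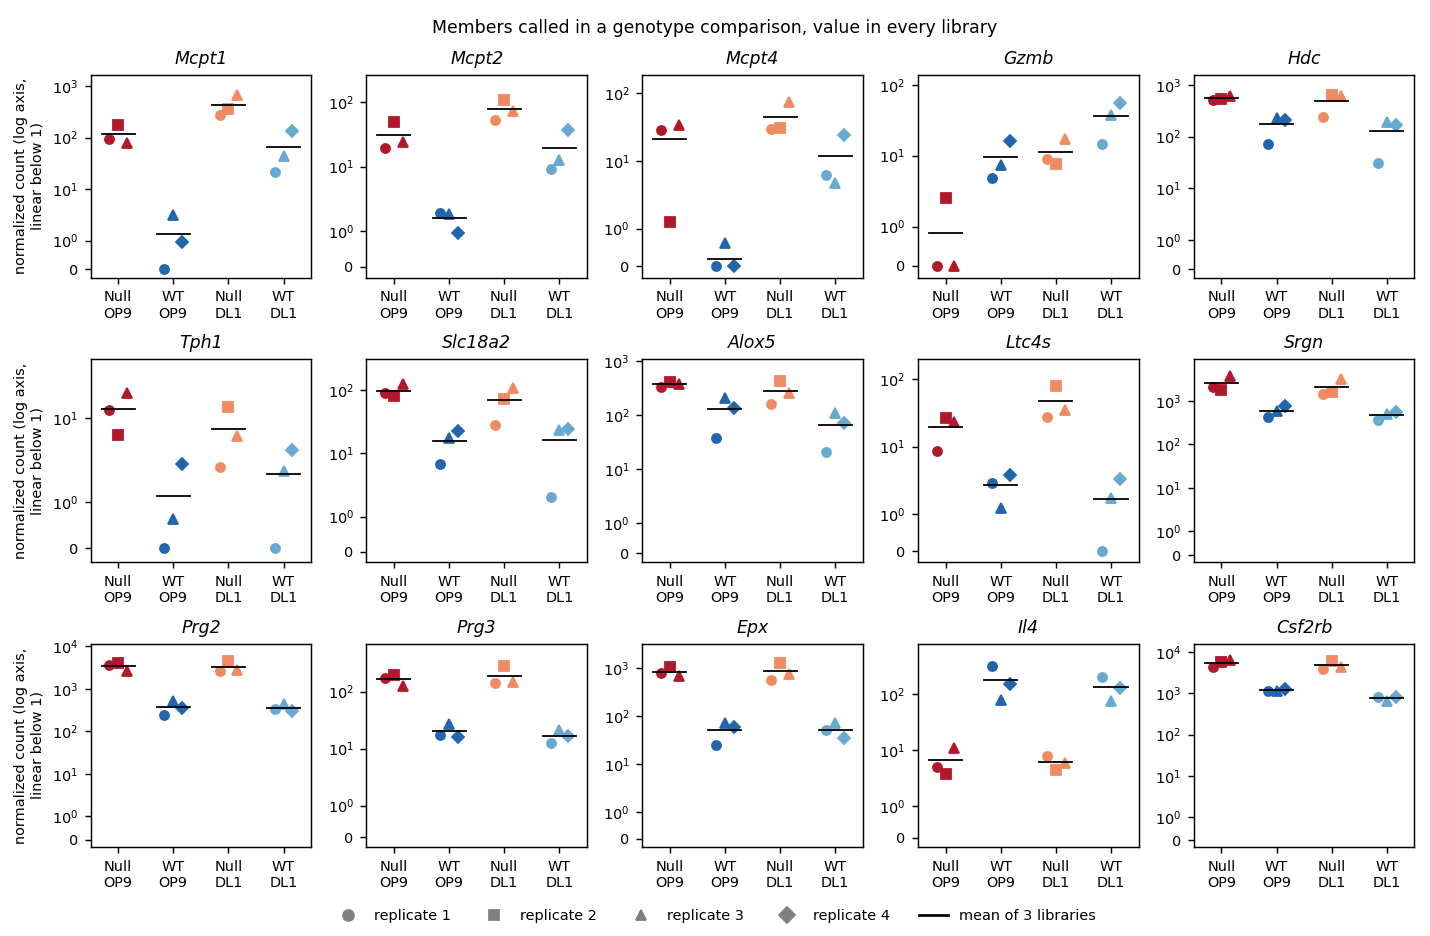
Normalized counts on a log axis for the 15 members called between genotypes on at least 1 stroma, 1 panel a gene, with a point for each of the 12 libraries and a bar at each group mean. The 3 Ik-Null/OP9 libraries lie above the 3 Ik-WT/OP9 libraries for 13 of these genes and below them for Il4 and Gzmb.

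The promoters of 6 members are shown because they belong to the called genes with the largest log2 fold changes in size for which RefSeq promoter sequence was at hand. Each runs from 250 bases before to 50 bases after the start of the gene in RefSeq, build GRCm38.p6, and is written in the direction of transcription. Capitals mark GATAA or its reverse complement TTATC, the letters read by GATA factors, and TGGGAA or its reverse complement TTCCCA, the core read by the NOTCH partner RBPJ, whose last 5 letters, GGGAA, are also the core read by IKAROS. The positions are chr14:56017714-56018013 (plus strand) for Mcpt1, chr11:53618616-53618915 (minus strand) for Il4, chr11:50238483-50238782 (minus strand) for Ltc4s, chr11:87875487-87875786 (minus strand) for Epx, chr14:56062261-56062560 (minus strand) for Mcpt4 and chr2:84987965-84988264 (plus strand) for Prg3.
Mcpt1: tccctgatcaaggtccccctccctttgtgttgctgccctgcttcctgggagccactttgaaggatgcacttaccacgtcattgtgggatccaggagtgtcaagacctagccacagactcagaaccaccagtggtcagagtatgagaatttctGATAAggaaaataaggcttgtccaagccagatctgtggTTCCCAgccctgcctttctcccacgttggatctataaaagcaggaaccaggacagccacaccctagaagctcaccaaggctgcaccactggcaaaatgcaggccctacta
Il4: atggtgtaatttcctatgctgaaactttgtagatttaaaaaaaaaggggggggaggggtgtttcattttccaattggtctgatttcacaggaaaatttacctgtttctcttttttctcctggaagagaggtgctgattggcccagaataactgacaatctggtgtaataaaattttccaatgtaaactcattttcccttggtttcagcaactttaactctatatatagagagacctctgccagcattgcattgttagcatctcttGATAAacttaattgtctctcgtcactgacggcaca
Ltc4s: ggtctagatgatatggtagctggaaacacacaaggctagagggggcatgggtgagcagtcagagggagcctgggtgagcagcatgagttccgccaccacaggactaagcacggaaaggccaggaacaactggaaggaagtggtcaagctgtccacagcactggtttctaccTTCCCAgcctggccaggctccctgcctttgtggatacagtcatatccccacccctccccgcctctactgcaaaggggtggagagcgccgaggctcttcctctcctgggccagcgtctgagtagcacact
Epx: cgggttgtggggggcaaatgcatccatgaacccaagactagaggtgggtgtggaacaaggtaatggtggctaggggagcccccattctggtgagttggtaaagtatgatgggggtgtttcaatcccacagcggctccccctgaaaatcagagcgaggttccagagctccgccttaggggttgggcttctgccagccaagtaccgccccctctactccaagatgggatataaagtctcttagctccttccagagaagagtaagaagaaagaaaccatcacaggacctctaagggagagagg
Mcpt4: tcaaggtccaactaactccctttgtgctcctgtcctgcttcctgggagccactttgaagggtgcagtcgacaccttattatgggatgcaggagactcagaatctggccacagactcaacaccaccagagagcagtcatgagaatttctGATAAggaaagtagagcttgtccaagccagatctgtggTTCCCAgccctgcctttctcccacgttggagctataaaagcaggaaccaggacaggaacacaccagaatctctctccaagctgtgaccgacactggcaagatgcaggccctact
Prg3: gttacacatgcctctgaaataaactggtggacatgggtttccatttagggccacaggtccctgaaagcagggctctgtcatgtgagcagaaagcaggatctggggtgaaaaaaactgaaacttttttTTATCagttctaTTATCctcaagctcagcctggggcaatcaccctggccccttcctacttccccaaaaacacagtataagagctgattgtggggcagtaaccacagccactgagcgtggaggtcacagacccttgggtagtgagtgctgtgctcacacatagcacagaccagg

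A RefSeq promoter was matched for 26 of the 32 members, 12 of them among the 15 called on either stroma. GATAA lay in 16 of these 26 promoters, 6 of the 12 from called members and 10 from the others, and in 25.4% of all 32851 mouse promoters of the same length. TGGGAA lay in 4 of the 26, those of Mcpt1, Mcpt4, Ltc4s and the untested Rgs13, and in 25.6% of all promoters. The promoters of the neighbouring chymase genes Mcpt1 and Mcpt4 were 85.6% identical over 291 aligned bases, and both hold GATAA and TTCCCA with starts 38 bases apart. Other pairs of promoters from the chymase locus were 55.3% to 65.6% identical. A match describes these letters and does not show a bound site.

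Granule proteases are the bulk of a mast cell's stored protein. Of the 9 tested, limma called 3 higher and 1 lower in Ik-Null/OP9 than in Ik-WT/OP9. In Ik-Null/OP9-DL1 it called 2 higher and 0 lower than in Ik-WT/OP9-DL1. The corresponding shares of all genes tested were 6.69% and 2.83% with OP9, and 9.41% and 4.65% with OP9-DL1. From recovered reads, edgeR called 2 proteases higher with OP9 stroma but 0 with OP9-DL1 stroma. DESeq2 called 3 and 2, and neither count test called a protease lower. The median log2 fold change of the 9 was 1.83 on OP9 and 1.71 on OP9-DL1.

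Mcpt1, a chymase of mucosal mast cells, had 92.7, 174 and 79.4 normalized counts in Ik-Null/OP9 libraries, against 0, 3.10 and 0.952 in Ik-WT/OP9 libraries. On OP9-DL1 it had 278, 358 and 671 in Ik-Null and 21.7, 44.0 and 135 in Ik-WT libraries. The genotypes did not overlap on either stroma, and the gene was close to absent from Ik-WT/OP9 cells, where 1 library was at 0. The log2 fold change of Ik-Null over Ik-WT was 5.78 ± 0.67 on OP9 (adjusted p = 0.000374, limma) and 2.97 ± 0.67 on OP9-DL1 (adjusted p = 0.0138). Leaving out either Ik-Null replicate 3 or Ik-WT replicate 1 on OP9-DL1 ended the OP9-DL1 call, with an adjusted p of up to 0.0529 in limma.

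Mcpt2, the other mucosal chymase of the mouse, had 19.8, 49.2 and 24.1 normalized counts in Ik-Null/OP9 libraries, against 1.92, 1.86 and 0.952 in Ik-WT/OP9 libraries. Its OP9-DL1 values were 53.2, 107 and 72.5 in Ik-Null and 9.28, 12.7 and 37.0 in Ik-WT libraries. All Ik-Null libraries were above all Ik-WT libraries on both stromas. Relative to Ik-WT, Ik-Null stood at 3.55 ± 0.52 on the log2 scale on OP9 (adjusted p = 0.00174, limma) and 2.11 ± 0.52 on OP9-DL1 (adjusted p = 0.0211), where leaving out any of 4 single libraries (Ik-Null replicate 2 or 3, Ik-WT replicate 1 or 3) raised the adjusted p to up to 0.101.

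Mcpt4, a chymase of connective tissue mast cells, had 28.4, 1.26 and 33.2 normalized counts in Ik-Null/OP9 libraries, against 0, 0.620 and 0 in Ik-WT/OP9 libraries. In recovered reads this was 24 reads in 2 Ik-Null libraries and 1 read in 3 Ik-WT libraries, a ratio of 55.5 after allowing for the size factors (exact 95% interval 9.06 to 2284, for counting error only). On OP9-DL1 it had 29.8, 30.2 and 74.5 in Ik-Null and 6.19, 4.63 and 23.9 in Ik-WT libraries, also without overlap. The log2 fold change was 3.48 ± 0.95 on OP9 (adjusted p = 0.0383, limma), lost on leaving out any single library other than Ik-Null replicate 2 (adjusted p up to 0.134), and 2.06 ± 0.95 on OP9-DL1 (adjusted p = 0.148). Of its 50-base windows, 5.5% also occur in Cma2, so a small part of its reads cannot be assigned to it alone.

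Gzmb, granzyme B, a serine protease of cytotoxic lymphocytes that mast cells and basophils can also express, went the other way. It had 0, 2.52 and 0 normalized counts in Ik-Null/OP9 libraries, against 4.79, 7.43 and 16.2 in Ik-WT/OP9 libraries, with no overlap. This rested on 2 recovered reads in 2 Ik-Null libraries and 34 in 3 Ik-WT libraries, a ratio of 0.136 (exact 95% interval 0.0158 to 0.531, for counting error only, without Ik-Null replicate 3 and without the spread between cultures). On OP9-DL1 the values were 9.08, 7.55 and 17.1 in Ik-Null and 14.4, 37.0 and 56.0 in Ik-WT libraries. The log2 fold change was -2.63 ± 0.67 on OP9 (adjusted p = 0.0290, limma), lost without any of Ik-Null replicates 1 and 3 and Ik-WT replicates 3 and 4 (adjusted p up to 0.113), and -1.47 ± 0.67 on OP9-DL1 (adjusted p = 0.143). Of 15 T and NK cell markers, Cd3e, Prf1, Ncr1 and Ifng were at 0 in all 12 libraries and 4 could be tested. The list summed to 23.5 to 61.8 normalized counts in Ik-Null/OP9 and 28.8 to 96.6 in Ik-WT/OP9 libraries, and to 14.3 to 48.3 in Ik-Null/OP9-DL1 and 53.6 to 88.5 in Ik-WT/OP9-DL1 libraries. Cd247, the zeta chain of the T cell receptor complex, was called lower in Ik-Null on OP9-DL1, at 1.77 ± 1.09 normalized counts in Ik-Null and 15.3 ± 8.32 in Ik-WT (SD, n = 3 each; log2 fold change -2.51 ± 0.56, adjusted p = 0.0128, limma). Cd3d, another chain of that complex, was not called, averaging 3.58 ± 1.48 normalized counts in Ik-Null and 22.4 ± 25.9 in Ik-WT cells with OP9. With OP9-DL1 it averaged 3.72 ± 3.41 in Ik-Null and 25.0 ± 15.9 in Ik-WT cells. EdgeR and DESeq2 on recovered reads called 0 genes of the list on either stroma. The part of these cells in the Gzmb difference was not tested.

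The other proteases did not pass the test. Mcpt8, a protease specific to mouse basophils, had 277, 95.9 and 207 normalized counts in Ik-Null/OP9 and 72.9, 199 and 367 in Ik-WT/OP9 libraries, and 138, 115 and 357 in Ik-Null/OP9-DL1 and 20.6, 159.7 and 228 in Ik-WT/OP9-DL1 libraries. Its log2 fold change was 0.01 ± 0.86 on OP9 (adjusted p = 0.994) and 0.95 ± 0.86 on OP9-DL1 (adjusted p = 0.460), with negative values on both stromas in edgeR and DESeq2 on recovered reads. The groups overlapped on both stromas.

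Prss34, a tryptase-like protease of basophils and mast cells, had 967, 180.4 and 468 normalized counts in Ik-Null/OP9 and 33.6, 130.1 and 307 in Ik-WT/OP9 libraries, and 199, 177 and 292 in Ik-Null/OP9-DL1 and 8.25, 47.4 and 114 in Ik-WT/OP9-DL1 libraries. The genotypes overlapped on OP9 and did not on OP9-DL1, with log2 fold changes of 1.96 ± 0.95 (adjusted p = 0.196) and 2.55 ± 0.95 (adjusted p = 0.0835).

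Cpa3, the carboxypeptidase of mast cell and basophil granules, had 395, 90.8 and 251 normalized counts in Ik-Null/OP9 and 24.0, 100.4 and 219.9 in Ik-WT/OP9 libraries. With OP9-DL1 the counts were 92.1, 46.8 and 150.1 in Ik-Null and 15.5, 48.0 and 105 in Ik-WT libraries. The ranges overlapped, and the log2 fold changes were 1.35 ± 0.87 on OP9 (adjusted p = 0.325) and 0.99 ± 0.87 on OP9-DL1 (adjusted p = 0.446). Cma1, another chymase, ranged over 24.0 to 65.5 normalized counts in Ik-Null/OP9 and 6.71 to 22.8 in Ik-WT/OP9 libraries, with log2 fold changes of 1.83 ± 0.91 on OP9 and 1.71 ± 0.91 on OP9-DL1. Tpsab1, a tryptase, had log2 fold changes of 1.51 ± 1.45 and 0.76 ± 1.45, and the second tryptase gene, Tpsb2, was under the minimum at 0 to 14.1 normalized counts over the 12 libraries.

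The eosinophil granule proteins were the group in which every member was called. All 3 were higher in Ik-Null than in Ik-WT on both stromas, and all 6 calls held on leaving out each of the 6 libraries of the comparison in turn.

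Prg2, the eosinophil major basic protein, had 3624, 4028 and 2568 normalized counts in Ik-Null/OP9 libraries, against 247, 523 and 346 in Ik-WT/OP9 libraries. With OP9-DL1 the counts were 2581, 4606 and 2807 in Ik-Null and 332, 431 and 295 in Ik-WT libraries. The lowest Ik-Null library was well above the highest Ik-WT library on each stroma. The log2 fold change was 3.23 ± 0.31 on OP9 (adjusted p = 0.000103, limma) and 3.20 ± 0.31 on OP9-DL1 (adjusted p = 9.00e-05). Per kilobase of exon it was the highest of the members in every group, with mean levels on OP9 of 4065 normalized counts per kilobase in Ik-Null and 444 in Ik-WT, and on OP9-DL1 of 3975 in Ik-Null and 421 in Ik-WT.

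Prg3, the second major basic protein, had 172, 194 and 123 normalized counts in Ik-Null/OP9 libraries, against 17.3, 26.6 and 16.2 in Ik-WT/OP9 libraries. Its OP9-DL1 values were 143, 275 and 149 in Ik-Null and 12.4, 20.8 and 16.5 in Ik-WT libraries. Again no library of one genotype reached the range of the other. Ik-Null differed from Ik-WT by 2.97 ± 0.34 on the log2 scale on OP9 (adjusted p = 0.000326, limma) and 3.40 ± 0.34 on OP9-DL1 (adjusted p = 0.000111).

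Epx, eosinophil peroxidase, had 786, 1082 and 683 normalized counts in Ik-Null/OP9 libraries, against 25.9, 73.7 and 60.0 in Ik-WT/OP9 libraries. On OP9-DL1 the counts were 572, 1310.4 and 752 in Ik-Null and 51.6, 71.1 and 36.2 in Ik-WT libraries. The 2 ranges did not overlap. Ik-Null stood above Ik-WT by 4.07 ± 0.42 on the log2 scale on OP9 (adjusted p = 0.000172, limma) and 3.99 ± 0.42 on OP9-DL1 (adjusted p = 0.000158).

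Limma called 4 of the 7 genes that make or store mediators higher in Ik-Null than in Ik-WT on each stroma, and 0 lower. Serglycin and leukotriene C4 synthase were called by limma on both stromas. The share of all genes tested that was called higher was 6.69% with OP9, against 9.41% with OP9-DL1. From recovered reads, edgeR called 1 of the 7 higher with OP9 stroma, and 2 with OP9-DL1 stroma. DESeq2 called 3 higher with each stroma.

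Srgn encodes serglycin, the proteoglycan core that holds proteases and amines in the granule, and is also made by platelets and other leukocytes. It had 2159.7, 1830.2 and 3743 normalized counts in Ik-Null/OP9 libraries, against 442, 584 and 778 in Ik-WT/OP9 libraries. With OP9-DL1 the counts were 1449.5, 1623 and 3271 in Ik-Null and 369, 507 and 577 in Ik-WT libraries. The ranges were apart on both stromas, with log2 fold changes of 2.07 ± 0.36 on OP9 (adjusted p = 0.00440, limma) and 2.05 ± 0.36 on OP9-DL1 (adjusted p = 0.00363).

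Ltc4s, leukotriene C4 synthase, had 8.65, 26.5 and 23.1 normalized counts in Ik-Null/OP9 libraries, against 2.88, 1.24 and 3.81 in Ik-WT/OP9 libraries. The OP9-DL1 cultures gave 27.3, 80.0 and 35.3 in Ik-Null and 0, 1.74 and 3.29 in Ik-WT libraries. The OP9-DL1 difference, 4.26 ± 0.65 on the log2 scale (adjusted p = 0.00174, limma), held without any single library. The OP9 difference, 2.42 ± 0.65 (adjusted p = 0.0363), was lost without any library other than Ik-Null replicate 1, with an adjusted p of up to 0.154. Gm26542 overlaps this gene and shares 15.2% of its 50-base windows, so its reads are in part uncertain.

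Alox5, the 5-lipoxygenase that begins leukotriene synthesis, had 334, 412 and 375 normalized counts in Ik-Null/OP9 libraries, against 37.4, 211 and 139 in Ik-WT/OP9 libraries. The OP9-DL1 cultures gave 165, 438 and 259.9 in Ik-Null and 20.6, 110.5 and 70.8 in Ik-WT libraries. No Ik-WT library reached the lowest Ik-Null library on either stroma. Ik-Null differed from Ik-WT by 1.84 ± 0.67 on the log2 scale on OP9 (adjusted p = 0.0994, limma) and 2.26 ± 0.67 on OP9-DL1 (adjusted p = 0.0409), and this call was lost without any of Ik-Null replicates 2 and 3 and Ik-WT replicates 1 and 4 (adjusted p up to 0.168).

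Hdc, histidine decarboxylase, which makes histamine, had 516, 529 and 602 normalized counts in Ik-Null/OP9 libraries, against 73.8, 233 and 213 in Ik-WT/OP9 libraries. Its OP9-DL1 values were 243, 634 and 602 in Ik-Null and 30.9, 190.3 and 169 in Ik-WT libraries. The groups were apart on both stromas, with log2 fold changes of 1.82 ± 0.66 on OP9 (adjusted p = 0.0951, limma) and 2.16 ± 0.66 on OP9-DL1 (adjusted p = 0.0436). Leaving out the same 4 libraries as for Alox5 ended its call, with an adjusted p of up to 0.166.

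Slc18a2, the vesicular transporter that loads histamine and serotonin into granules, had 89.0, 79.5 and 124 normalized counts in Ik-Null/OP9 libraries, against 6.71, 17.3 and 22.8 in Ik-WT/OP9 libraries. The OP9-DL1 cultures gave 28.5, 72.5 and 108 in Ik-Null and 2.06, 23.7 and 23.9 in Ik-WT libraries. The genotype difference was 2.69 ± 0.78 on the log2 scale on OP9 (adjusted p = 0.0483, limma) and 2.32 ± 0.78 on OP9-DL1 (adjusted p = 0.0610). Its OP9 call was lost on leaving out any of the 6 libraries (adjusted p up to 0.159).

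Tph1, the tryptophan hydroxylase of serotonin synthesis, was near the minimum. It had 12.4, 6.31 and 20.1 normalized counts in Ik-Null/OP9 libraries, against 0, 0.620 and 2.86 in Ik-WT/OP9 libraries, and 2.60, 13.6 and 6.04 in Ik-Null/OP9-DL1 against 0, 2.31 and 4.11 in Ik-WT/OP9-DL1 libraries. The log2 fold change was 2.79 ± 0.78 on OP9 (adjusted p = 0.0431, limma), lost without any library other than Ik-WT replicate 4 (adjusted p up to 0.140), and 1.48 ± 0.78 on OP9-DL1 (adjusted p = 0.202). Hpgds, the hematopoietic prostaglandin D synthase, had 121, 209 and 116 normalized counts in Ik-Null/OP9 and 67.1, 112 and 124 in Ik-WT/OP9 libraries, and 58.4, 309 and 192 in Ik-Null/OP9-DL1 and 28.9, 92.0 and 89.7 in Ik-WT/OP9-DL1 libraries. It was not called, with log2 fold changes of 0.55 ± 0.60 (adjusted p = 0.570) and 1.27 ± 0.60 (adjusted p = 0.154).

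**Figure D2:**
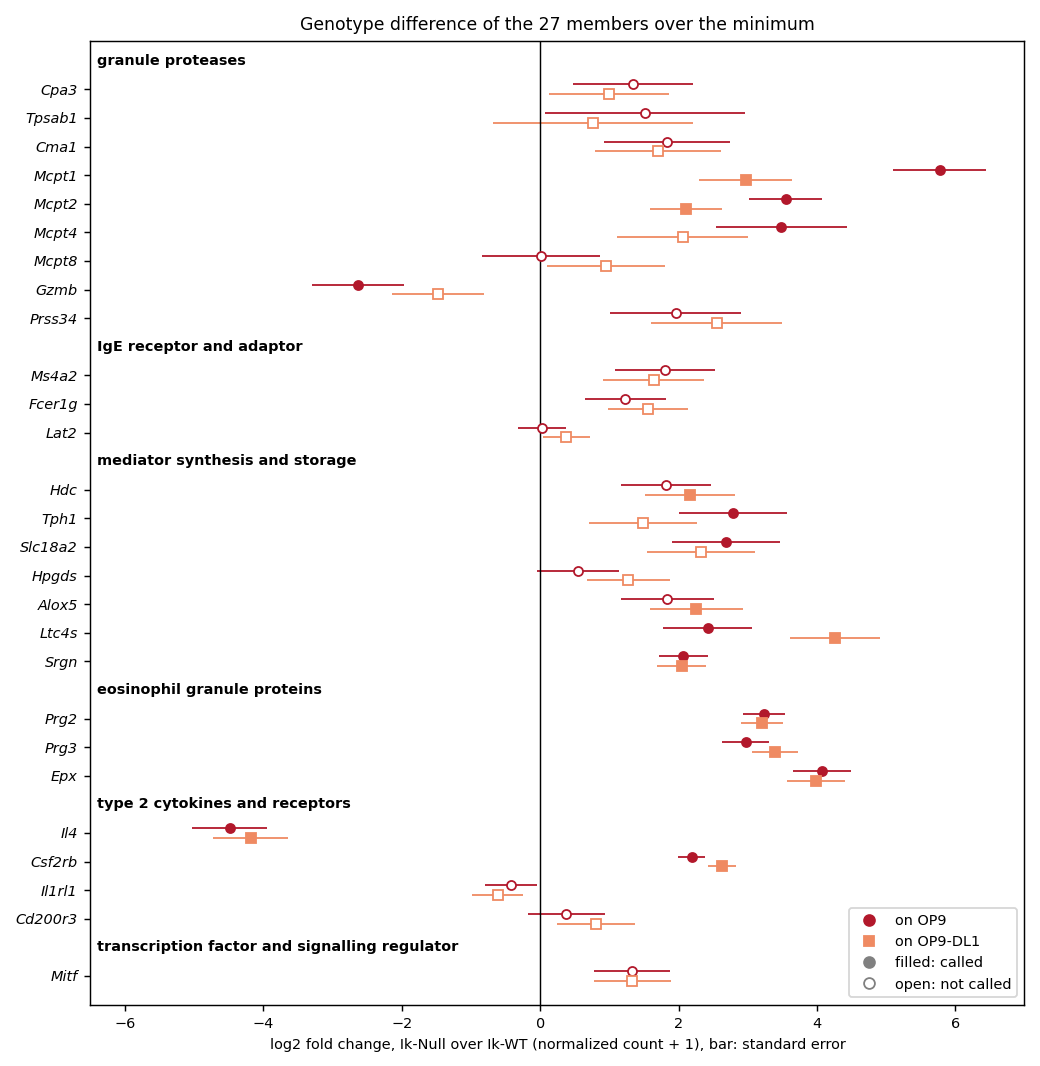
Log2 fold change of Ik-Null over Ik-WT with its standard error for the 27 members tested, on OP9 and on OP9-DL1, grouped by role, with filled points for calls by limma. The 3 eosinophil granule genes lie between 2.97 and 4.07 on both stromas, and Il4 lies at -4.48 on OP9 and -4.18 on OP9-DL1.

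The cytokine and receptor genes moved in different directions. Il4, the type 2 cytokine made by basophils, mast cells, eosinophils and T cells, had 4.94, 3.78 and 11.1 normalized counts in Ik-Null/OP9 libraries, against 316, 79.3 and 149 in Ik-WT/OP9 libraries. On OP9-DL1 it had 7.79, 4.53 and 6.04 in Ik-Null and 206, 75.8 and 128 in Ik-WT libraries. The highest Ik-Null library was below the lowest Ik-WT library on each stroma, and the log2 fold change on OP9-DL1 was -4.18 ± 0.54 (adjusted p = 0.000667, limma), near that on OP9. Both calls held without any single library. The order of levels per kilobase of exon differed between genotypes: Il4 averaged 5.37 in Ik-Null/OP9 and 148 in Ik-WT/OP9 normalized counts per kilobase, beside Epx at 311 in Ik-Null/OP9 and 19.4 in Ik-WT/OP9. Il13, its neighbour and fellow type 2 cytokine, was under the minimum at 0 to 3.10 normalized counts.

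Csf2rb, the common beta chain of the IL-3, IL-5 and GM-CSF receptors, had 4452, 5732 and 6359 normalized counts in Ik-Null/OP9 libraries, against 1160.1, 1152 and 1279.5 in Ik-WT/OP9 libraries. In the presence of DELTA-like 1 there were 3935, 6067 and 4323 in Ik-Null and 809, 653 and 828 in Ik-WT libraries. The groups were apart, with log2 fold changes of 2.19 ± 0.20 on OP9 (adjusted p = 8.52e-05, limma) and 2.63 ± 0.20 on OP9-DL1 (adjusted p = 2.96e-05). It shares 12.3% of its 50-base windows with Csf2rb2, the IL-3-specific beta chain. Limma called Csf2rb2 higher in Ik-Null, at log2 fold changes of 1.62 ± 0.37 on OP9 and 1.99 ± 0.37 on OP9-DL1. EdgeR on recovered reads did not call Csf2rb2 higher on OP9. Neutrophils, macrophages and their precursors also express Csf2rb.

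Il1rl1, the receptor for IL-33, had 104, 121 and 176 normalized counts in Ik-Null/OP9 and 149, 164 and 218 in Ik-WT/OP9 libraries. Its OP9-DL1 values were 49.3, 101 and 135 in Ik-Null and 92.8, 168 and 158 in Ik-WT libraries. The ranges overlapped and the log2 fold changes were -0.42 ± 0.37 on OP9 (adjusted p = 0.480) and -0.62 ± 0.37 on OP9-DL1 (adjusted p = 0.264). Cd200r3, an activating receptor of mouse basophils and mast cells, had log2 fold changes of 0.38 ± 0.56 and 0.81 ± 0.56 and was not called. Il5ra, the IL-5 receptor alpha chain of eosinophils, was under the minimum at 0 to 4.02 normalized counts.

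Of the 3 tested genes of the IgE receptor and its adaptor 0 were called by limma on either stroma, and 0 by edgeR and by DESeq2 on recovered reads. At unadjusted p under 0.05, 1 was higher on OP9 and 2 on OP9-DL1, against 2200 and 2581 of the 13769 genes. Fcer1g, the signalling gamma chain, which other myeloid cells also express, had 389, 769 and 621 normalized counts in Ik-Null/OP9 and 128, 402 and 275 in Ik-WT/OP9 libraries, and 254, 806 and 568 in Ik-Null/OP9-DL1 and 73.2, 297 and 206 in Ik-WT/OP9-DL1 libraries. The log2 fold changes were 1.23 ± 0.58 on OP9 (unadjusted p = 0.0562, adjusted p = 0.185, limma) and 1.56 ± 0.58 on OP9-DL1 (unadjusted p = 0.0204, adjusted p = 0.0839). Ms4a2, the receptor's beta chain, restricted to mast cells and basophils, had 46.4 ± 3.07 normalized counts in Ik-Null/OP9 and 16.7 ± 13.9 in Ik-WT/OP9 (SD, n = 3 each), without overlap. On OP9-DL1 the genotypes overlapped, at 16.9 to 37.3 in Ik-Null and 2.06 to 18.1 in Ik-WT libraries. Its log2 fold change was 1.81 ± 0.73 on OP9 (unadjusted p = 0.0298, adjusted p = 0.128, limma). On OP9-DL1 it was 1.64 ± 0.73 (unadjusted p = 0.0446, adjusted p = 0.134, limma).

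Fcer1a, the IgE-binding alpha chain, was under the minimum, at 0 to 4.96 normalized counts over the 12 libraries. It was at 0 in every Ik-Null/OP9 library and at 1.90 to 4.96 in Ik-WT/OP9 libraries. On OP9-DL1 it was at 0 to 1.30 in Ik-Null and 0 to 3.47 in Ik-WT libraries. Lat2, an adaptor downstream of the receptor, had 49.4, 53.0 and 67.3 normalized counts in Ik-Null/OP9 and 37.4, 83.0 and 53.3 in Ik-WT/OP9 libraries, and 35.0, 61.9 and 69.5 in Ik-Null/OP9-DL1 and 35.1, 46.9 and 41.1 in Ik-WT/OP9-DL1 libraries. Its groups overlapped, with log2 fold changes of 0.03 ± 0.34 (unadjusted p = 0.935) and 0.38 ± 0.34 (unadjusted p = 0.294) in limma. Rfc2 overlaps it on the opposite strand and shares 31.9% of its 50-base windows, so its counts are uncertain unless strand was used in counting.

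Of the regulators, Mitf, a transcription factor needed for mast cell development, had 46.9, 141 and 126 normalized counts in Ik-Null/OP9 and 24.9, 63.8 and 31.4 in Ik-WT/OP9 libraries. On OP9-DL1 it had 29.8, 93.6 and 86.6 in Ik-Null and 16.5, 34.7 and 24.7 in Ik-WT libraries. It was not called, with log2 fold changes of 1.33 ± 0.55 on OP9 (adjusted p = 0.140) and 1.33 ± 0.55 on OP9-DL1 (adjusted p = 0.115). Rgs13, a regulator of G protein signalling in mast cells, was at 0 in all 12 libraries.

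Ik-WT replicate 1 was the lowest Ik-WT library for 22 of 27 members on OP9 and for 22 of 27 on OP9-DL1, compared with 42.1% and 44.2% of all genes tested. It was the highest for 2 of 27 on OP9 and 1 of 27 on OP9-DL1, against 45.4% and 43.6% of all genes. Il4 was among these on both stromas, at 316 normalized counts on OP9 and 206 on OP9-DL1. Ik-Null replicate 1 was the lowest Ik-Null library on OP9-DL1 for 21 of 27 members, against 37.7% of all genes. On OP9 it was the lowest for 10 of 27, against 40.8% of all genes, and Ik-Null replicate 2 was the lowest for 12 of 27, against 27.7%.

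Stroma was compared within a genotype. With limma as above, 0 of 27 members were called between Ik-WT/OP9-DL1 and Ik-WT/OP9 in either direction, where 0.00726% of all genes were called. At unadjusted p under 0.05, 4 members were higher and 1 lower, against 86 and 105 of the 13769 genes. On recovered reads, edgeR called 0 members, and DESeq2 called 2 higher, Mcpt1 and Mcpt2, against 10 of all genes. Between Ik-Null/OP9-DL1 and Ik-Null/OP9, 0 of 27 were called, where 0.0145% of all genes were. At unadjusted p under 0.05, 3 members were higher, against 183 of the 13769 genes, and 0 lower, against 35. EdgeR and DESeq2 each called 0 members. These comparisons share libraries with the genotype comparisons.

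Cultures of the same number deviated together on both stromas, so the stroma comparison was also fitted with the culture as a block. In Ik-WT cells 3 members were then called higher on OP9-DL1 than on OP9, against 0.45% of all genes, and 2 lower, against 1.02%. The 3 were the chymases Mcpt1 at 4.69 ± 0.43 on the log2 scale (adjusted p = 0.000206, limma), Mcpt2 at 2.79 ± 0.41 (adjusted p = 0.00283) and Mcpt4 at 3.09 ± 0.65 (adjusted p = 0.0238). The lower ones were Prss34 at -1.59 ± 0.30 (adjusted p = 0.0123) and Alox5 at -0.91 ± 0.17 (adjusted p = 0.0124). In Ik-Null cells 1 member was called higher, against 0.508% of all genes, and 1 lower, against 0.225%. The higher one was Gzmb at 2.93 ± 0.51 (adjusted p = 0.0139, limma), and the lower one was Cpa3 at -1.26 ± 0.23 (adjusted p = 0.0171). Mcpt1 had a log2 fold change of 1.89 ± 0.43 between stromas in Ik-Null cells (adjusted p = 0.0526).

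Changes were also counted culture by culture. Mcpt1, Mcpt2, Mcpt4 and Gzmb were higher on OP9-DL1 than on OP9 in all 6 cultures, 4 of 27 members against 4.65% of all genes. Cpa3, Cma1, Prss34, Ms4a2, Srgn and Mitf were lower on OP9-DL1 in all 6 cultures, 6 of 27 against 5.46%. Mcpt1 changed by 1.04 to 3.06 in the 3 Ik-Null cultures and by 3.46 to 6.12 in the 3 Ik-WT cultures on the log2 scale, which did not overlap. The test of that difference gave -2.80 ± 0.95 (unadjusted p = 0.0126, limma), and -2.80 ± 0.61 with the culture as a block (adjusted p = 0.164). Ik-WT/OP9 libraries held few Mcpt1 reads, and a change measured from such low values depends on the pseudocount of 1.

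**Figure D3:**
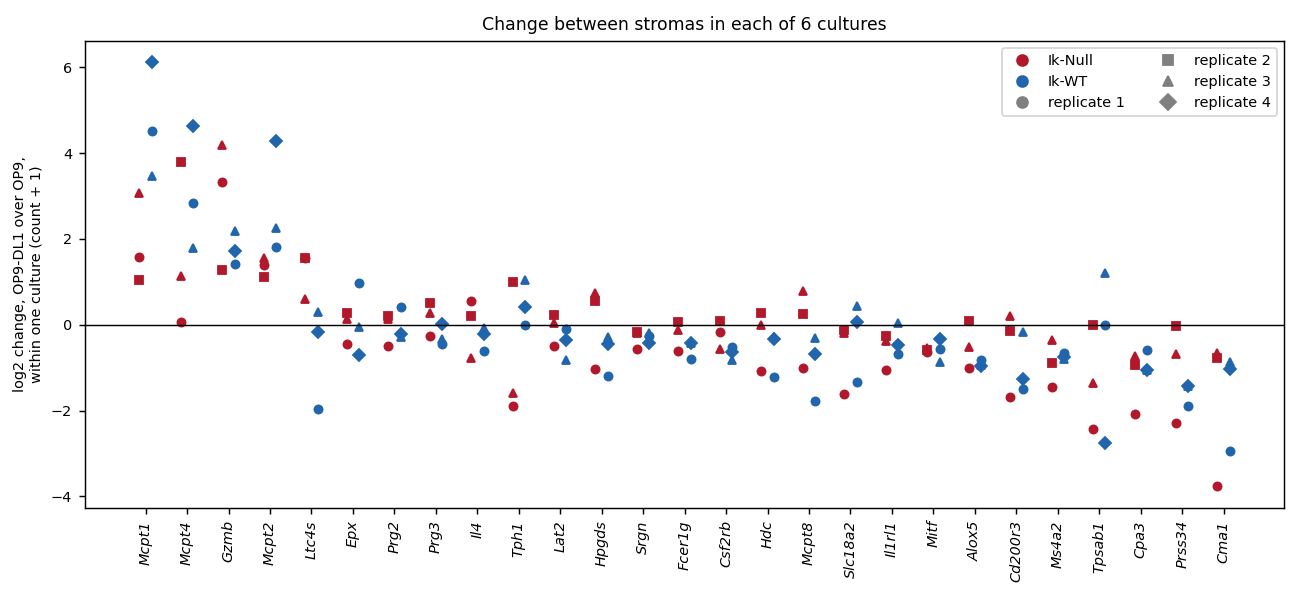
Log2 change of each of the 27 members on OP9-DL1 relative to OP9 in each of the 6 cultures, with 3 points for Ik-Null and 3 for Ik-WT cultures. The points of Mcpt1, Mcpt2, Mcpt4 and Gzmb all lie above 0 and those of Cpa3, Cma1, Prss34, Ms4a2, Srgn and Mitf all below it.

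Genes that work with the members were described from further lists. Over all genes tested, limma called 6.69% higher and 2.83% lower on OP9, and 9.41% and 4.65% on OP9-DL1. Of 17 genes of IgE receptor signalling, limma called 3 higher and 0 lower in Ik-Null on OP9, and 4 and 0 on OP9-DL1. Their median log2 fold changes were 0.91 and 1.11. On recovered reads, edgeR called 2 higher on each stroma, and DESeq2 called 3 on OP9 and 4 on OP9-DL1. Lyn, the kinase that starts signalling from the receptor, averaged 1535 ± 230.1 normalized counts in Ik-Null/OP9 cells and 284 ± 129.6 in Ik-WT/OP9 cells (SD, n = 3 each), a log2 fold change of 2.53 ± 0.41, and 3.04 ± 0.41 on OP9-DL1. Syk, the kinase next in line, stood at 1.69 ± 0.42 and 1.78 ± 0.42, and Lat, the scaffold, at 2.10 ± 0.37 and 2.15 ± 0.37 on OP9 and OP9-DL1. Prkcd, a protein kinase C, was called on OP9-DL1 at 1.16 ± 0.31.

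Of 17 lineage transcription factors and growth factor receptors, limma called 2 higher and 1 lower in Ik-Null on OP9, against 6.69% and 2.83% of all genes. On OP9-DL1 it called 4 higher and 1 lower, against 9.41% and 4.65%. Their median log2 fold changes were 0.71 and 0.56. Besides Csf2rb2, Cebpa, a myeloid transcription factor, was called higher on both stromas, and Csf2ra and Gata2 on OP9-DL1. Il9r, the receptor for the mast cell growth factor IL-9, was lower, with 50.5 ± 20.5 normalized counts in Ik-Null/OP9 cells and 263 ± 85.3 in Ik-WT/OP9 cells, a log2 fold change of -2.38 ± 0.43 (adjusted p = 0.00568, limma), and -1.97 ± 0.43 on OP9-DL1 (adjusted p = 0.0123).

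Of 31 other mast cell, basophil and eosinophil genes, 24 could be tested, 6 were called higher on OP9, 8 higher on OP9-DL1 and 0 lower on either, with medians of 1.42 and 1.57. The ribonucleases Ear1, Ear2 and Ear6, which belong to a multigene family of eosinophils and other myeloid cells and can share reads, were all among them. Over all genes tested, 6.69% were called higher and 2.83% lower on OP9, and 9.41% and 4.65% on OP9-DL1. On recovered reads, edgeR called 3 genes of the list higher on each stroma. DESeq2 called 4 higher on OP9, and 7 higher with 1 lower on OP9-DL1. Ear2 averaged 468 ± 114 normalized counts in Ik-Null/OP9 cells and 51.6 ± 36.9 in Ik-WT/OP9 cells, a log2 fold change of 3.39 ± 0.53, and stood at 3.62 ± 0.53 on OP9-DL1. Ear6 stood at 3.45 ± 0.38 on OP9 and 3.65 ± 0.38 on OP9-DL1, and Ear1 at 3.43 ± 0.53 and 3.82 ± 0.53.

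Markers of megakaryocytes and macrophages were also called higher in Ik-Null cells, beside 6.69% of all genes tested on OP9 and 9.41% on OP9-DL1. Of 12 megakaryocyte genes, 7 were called higher in Ik-Null on OP9 and 8 were on OP9-DL1, and their summed level was 4908 to 9946 normalized counts in Ik-Null/OP9, against 1043 to 1915 in Ik-WT/OP9, and 3406 to 9217 in Ik-Null/OP9-DL1, against 924 to 1589 in Ik-WT/OP9-DL1. Itgb3, an integrin chain of platelets, stood at 4.40 ± 0.32 log2 units on OP9 and at 4.63 ± 0.32 on OP9-DL1. Of 12 macrophage genes, 2 and 5 were called higher, and the sums were 12707 to 25665 in Ik-Null/OP9 against 3338 to 11774 in Ik-WT/OP9, and 7460.5 to 25701 in Ik-Null/OP9-DL1 against 2026 to 6823 in Ik-WT/OP9-DL1. C1qa and Mrc1 were called on both stromas by limma, Mrc1 at 2.95 ± 0.48 on OP9 and 2.95 ± 0.48 on OP9-DL1. Cd14, Cd68 and Csf1r were called on OP9-DL1 as well. Of the macrophage genes, edgeR called 2 higher on each stroma, and DESeq2 called 3 on OP9 and 6 on OP9-DL1. Of 10 neutrophil genes 0 were called on either stroma. Their sums were 42071 to 91772 in Ik-Null/OP9 and 10034 to 53599 in Ik-WT/OP9, and 24048 to 87931 in Ik-Null/OP9-DL1 and 6728 to 30482 in Ik-WT/OP9-DL1. Gene against gene on OP9, S100a9 averaged 25570 normalized counts in Ik-Null and 8563 in Ik-WT. Csf2rb, the member with the highest mean there, averaged 5514 and 1197. At unadjusted p under 0.05, 4 neutrophil genes on OP9 and 5 on OP9-DL1 were higher in limma, and edgeR and DESeq2 each called 0. Several members, among them Srgn, Csf2rb, Fcer1g and Alox5, are also expressed by such cells. The part of other blood cells and of stroma in the members' differences was not tested.

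Of 12 stromal genes 11 could be tested. The share of all genes tested that limma called higher was 6.69% on OP9 and 9.41% on OP9-DL1. On OP9 0 were called by limma (5 were higher at unadjusted p under 0.05, and edgeR and DESeq2 each called 1 higher), on OP9-DL1 only Fn1 was called higher in Ik-Null, and the summed level was 3407 to 4537 in Ik-Null/OP9 against 2035 to 2407 in Ik-WT/OP9, and 3788 to 7049 in Ik-Null/OP9-DL1 against 2217 to 2646 in Ik-WT/OP9-DL1. The members' own sums for the eosinophil granule genes were 3374 to 5304 in Ik-Null/OP9 against 291 to 623 in Ik-WT/OP9, and 3296 to 6191 in Ik-Null/OP9-DL1 against 348 to 523 in Ik-WT/OP9-DL1.

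**Figure D4:**
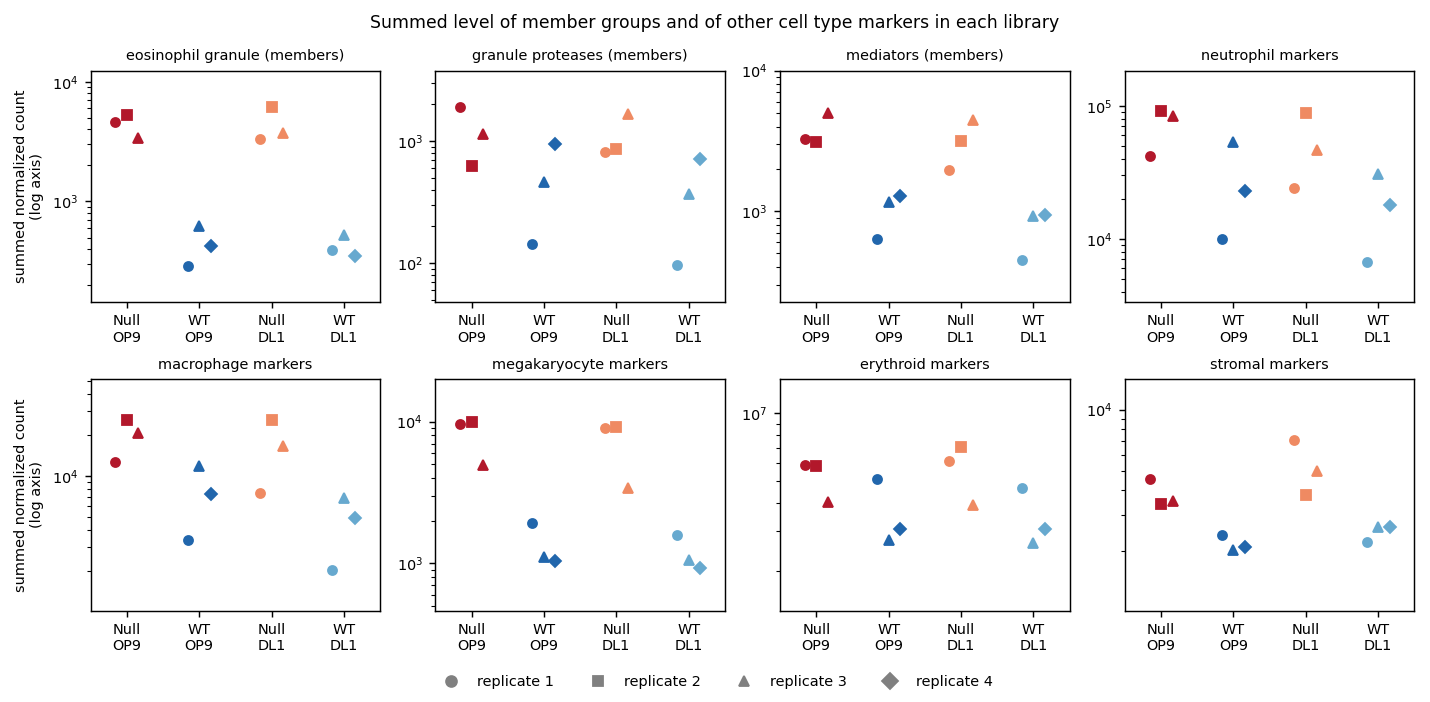
Summed normalized counts per library, on a log axis, for groups of members and for marker lists of other cell types, with the groups side by side and a point for each library. The sums of the eosinophil granule and mediator genes do not overlap between genotypes on either stroma. Those of the megakaryocyte, macrophage and stromal lists do not either. The granule protease sums overlap on OP9, and the neutrophil sums on both stromas. The 9 erythroid genes are plotted for comparison, and their sums overlap on both.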

How the data were processed

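The deposited values are signals made by the authors: read counts per gene divided by a size factor for each library, the median ratio to the geometric mean over libraries. The submitters' processing notes name DESeq2 1.0.19, HTSeq 0.5.3, TopHat2 2.0.9 and CASAVA 1.8. For use of strand and for the annotation release, the answer is not given in the sources used here. Comparison tables of the authors hold their fold changes and p-values and were not used.

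Log2(value + 1) was fitted with limma 3.58.1 in R 4.3.3 over all 12 libraries, with a mean for each of the 4 groups, for the 13769 genes averaging 5 or more. Calls needed both a p adjusted over those genes (Benjamini-Hochberg) under 0.05 and a log2 difference of 0.8 or more in size, the thresholds of the study. Fold changes on this scale understate the change of low genes. Dividing by the worth of 1 read gave whole reads for 100% of values in each of the 12 libraries (tolerance 0.01), and edgeR 4.0.16 and DESeq2 1.42.0 tested the reads of 10. They called 551 genes higher and 234 lower (edgeR) and 968 and 410 (DESeq2) on OP9, and 792 and 428, and 1387 and 586, on OP9-DL1. Both Ik-Null replicate 3 libraries were left out of these count tests by choice, since 1 read was worth so close to 1 there (1.00 and 1.01) that the step was not taken as established.

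Within a genotype, deviations of same-numbered cultures on both stromas correlated at 0.64 to 0.83 in Ik-Null and 0.58 to 0.83 in Ik-WT, so the numbers pair the stromas. Genotypes share only numbers 1 and 3. Replicates were described as biological, and p-values measure the spread between them. The main genotype fit treated the 12 libraries as independent, so paired libraries counted separately in its estimate of the spread. The genotype comparisons on OP9 and OP9-DL1 share these pairs, so a call on both stromas is not independent support.

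The members and lists were chosen with earlier results of these data known. Members called, or averaging 50 normalized counts or more, are given by library, the others by range or fold change, and of each other list up to 4 genes with the smallest adjusted p are named. Mcpt3 and Ahsp were not analysed here. Siglecf and Adgre1 were matched by their older symbols Siglec5 and Emr1. Positions came from GENCODE and promoters from RefSeq, both on GRCm38. Alternatives were other pseudocounts, minimum means, scalings and tests, a replicate block and leaving out each library or culture.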

Additional observations from a re-analysis of the deposited data

How the results depend on the processing

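Between genotypes, the members called kept their direction under the alternatives run, and 4 members without a call did not. Over the alternatives of single genes, 968 kept direction and side of the threshold, 27 passed it newly, 102 no longer passed it and 25 changed sign. Mcpt8 gave log2 fold changes of -0.25 with edgeR, -0.20 with DESeq2 and -0.21 with a common total on OP9, -0.18 with edgeR and -0.11 with DESeq2 on OP9-DL1, and -0.61 to 0.54 (OP9) and -0.10 to 1.60 (OP9-DL1) over left-out libraries. Lat2 on OP9 gave -0.24 with edgeR, -0.19 with DESeq2, -0.19 with a common total, -0.012 under the block and -0.24 to 0.32 over left-out libraries. Tpsab1 on OP9-DL1 gave -0.20 with edgeR and -0.015 with DESeq2, and Cd200r3 on OP9 -0.014 to 0.71 over left-out libraries. The cause was not tested. On OP9, members called higher in Ik-Null numbered 7 with edgeR on recovered reads, and members called lower numbered 1 with edgeR, with DESeq2, with a pseudocount of 5 and with a minimum mean of 20. With no minimum mean, 3 members were called lower on OP9. On OP9-DL1, edgeR called 6 higher. DESeq2 called 2 members higher on OP9-DL1 than on OP9 in Ik-WT cells. These count tests had 2 libraries fewer, and the cause was not tested. Leaving out a single library or culture gave 7 to 9 members higher and 1 to 2 lower on OP9, 6 to 14 higher and 1 lower on OP9-DL1, and 0 to 1 higher between stromas in Ik-WT. The 7 came without Ik-Null/OP9 replicate 3, without Ik-WT/OP9 replicate 1 or 3, and without Ik-Null culture 3 or Ik-WT culture 3 or 4. The 6 came without Ik-Null/OP9-DL1 replicate 3, without Ik-WT/OP9-DL1 replicate 1, and without Ik-Null culture 2 or 3, and the 1 between stromas without Ik-WT/OP9-DL1 replicate 1. Over all genes, the fits with a library or culture left out called 361 to 1576 higher on OP9 and 456 to 2120 higher on OP9-DL1. Calls on Gzmb, Mcpt4 and Tph1 rest on few reads, which limits their precision.

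With the replicate number as a block across genotypes, where only numbers 1 and 3 occur in both, 19 members were called higher in Ik-Null on OP9 and 19 on OP9-DL1. Over all genes, that fit called 12.9% higher on OP9, with 15.5% for OP9-DL1. Same-numbered libraries of the 2 genotypes correlated at 0.20 to 0.37 on OP9 and 0.37 to 0.48 on OP9-DL1, but they share only a number. Between stromas the block gave 3 members higher and 2 lower in Ik-WT, and 1 higher and 1 lower in Ik-Null.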

Other observations

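The neighbourhoods of called members were described after their values were seen. The chymase locus on chromosome 14 spans 320.8 kb and holds 17 genes, 6 of them members, and 8 over the minimum. Of the 2 others over the minimum, Ctsg, the cathepsin G of neutrophil and mast cell granules, had mean levels of 500.3 normalized counts in Ik-Null/OP9 and 263 in Ik-WT/OP9, with log2 fold changes of 1.03 on OP9 (adjusted p = 0.157, limma) and 1.16 on OP9-DL1 (adjusted p = 0.0950). It was not called, and the other, Gm5801, was not either. Around Il4, a window of 18 genes held 5 others over the minimum, of which 1, Sowaha, was called. Sowaha averaged 1845 normalized counts in Ik-Null/OP9 and 4969 in Ik-WT/OP9, with log2 fold changes of -1.30 on OP9 (adjusted p = 0.0497, limma) and -1.34 on OP9-DL1. Kif3a, the nearest gene over the minimum on one side, stood at -0.49 and -0.29, and Rad50, on the other, at -0.42 and -0.71 on OP9 and OP9-DL1, both short of the fold threshold.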
